A study of Mus musculus with 3 samples.

Results

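The genes examined were 10 loci of glycolysis in mouse embryonic stem cells: Slc2a1, Hk2, Gpi1, Pfkp, Aldoa, Tpi1, Pgk1, Eno1, Pkm and Ldha, out of 21887 protein-coding genes in the gene table. Chromatin accessibility had been measured by ATAC-seq, in which the Tn5 transposase inserts sequencing adapters into open DNA. A peak was assigned to a gene when its midpoint lay inside the gene body or within 5 kb of it. By this rule the genes held 56 of the 88898 peaks listed for Halo-Sox2, 52 of 83995 for Halo-Sox2a and 42 of 72638 for the control. All 10 genes had a peak in every list. Pgk1 had been singled out earlier because its peak ranked far higher in both transgene lists than in the control. The other 9 genes were chosen for their place in the pathway, and the question was whether they moved as Pgk1 did.

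All 3 lines derive from CGR8 and were grown with serum, LIF and the kinase inhibitors CHIR99021 and PD184352. Line SES4.1 expressed the pluripotency factor Sox2 fused to the Halo tag, induced with 300 ng/mL doxycycline for 20 h. Line SES5.1 expressed Halo-Sox2a, a form the labels name without describing it, induced with 70 ng/mL for 20 h. Both lines were stained with 50 nM of dye and sorted in 1 common window of dye intensity. Line SES11, for which the labels name no transgene, was the control, and its doxycycline, staining and sorting are not stated. Each group was 1 library of 1 line, so the spread between replicates is not known and no test was made. The transgene, the line, the doxycycline, the staining and the sorting cannot be told apart. In a bulk library, fewer cells with an open site and less opening per cell cannot be told apart either.

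Glycolysis turns glucose into pyruvate in the cytosol, yielding ATP and NADH, and embryonic stem cells are known to rely on it heavily. Slc2a1 takes glucose up. Hk2, Gpi1, Pfkp, Aldoa and Tpi1 phosphorylate it and split it into triose phosphates. Pgk1, Eno1 and Pkm belong to the lower steps that regain ATP, and Ldha reduces pyruvate to lactate. Many of these genes are known targets of the hypoxia-inducible factor, which binds a short core, ACGTG or GCGTG, near their promoters. ATAC-seq reads the openness of such promoters and does not measure their RNA.

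The scores are the authors' own, one for each peak, and have no common scale between lists. Each peak is therefore given by its rank within its list, with rank 1 for the highest score, and by that rank as a percentage of the list, called the rank fraction. A small rank fraction is near the top. The fold between lists is the ratio of 2 rank fractions, and a gene counts as moved, towards the top or away from it, when that ratio is at least 2 in either direction. Distances run from the nearest annotated start to the middle of a peak.

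Pgk1 encodes phosphoglycerate kinase, and its gene lies on chromosome X from 106187100 to 106203699 on the plus strand (mm10). The RefSeq promoter windows (GRCm38.p6) run from 250 bases before to 50 bases after an annotated start, and 16 such windows matched the 10 genes. Shown are Pgk1, Slc2a1 and Hk2, which moved towards the top in at least 1 list, and Ldha, the first of its windows, which lay farther down. Each is written 5′ to 3′ on the gene's strand, with ACGTG and GCGTG, read on either strand, in capitals.
Pgk1 promoter, chrX:106186850-106187149, plus strand: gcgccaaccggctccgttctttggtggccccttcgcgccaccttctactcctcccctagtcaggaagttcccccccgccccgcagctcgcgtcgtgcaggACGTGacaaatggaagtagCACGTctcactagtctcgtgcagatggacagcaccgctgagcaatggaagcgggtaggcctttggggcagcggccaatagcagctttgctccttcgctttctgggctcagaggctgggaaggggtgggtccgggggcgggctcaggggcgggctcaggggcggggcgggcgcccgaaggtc
Slc2a1 promoter, chr4:119108495-119108794, plus strand: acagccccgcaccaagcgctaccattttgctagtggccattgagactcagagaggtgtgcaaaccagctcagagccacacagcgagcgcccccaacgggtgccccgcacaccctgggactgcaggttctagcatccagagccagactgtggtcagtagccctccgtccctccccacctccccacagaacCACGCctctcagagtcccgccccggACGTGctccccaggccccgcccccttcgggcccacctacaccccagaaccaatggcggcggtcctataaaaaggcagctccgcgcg
Hk2 promoter, chr6:82774405-82774704, minus strand: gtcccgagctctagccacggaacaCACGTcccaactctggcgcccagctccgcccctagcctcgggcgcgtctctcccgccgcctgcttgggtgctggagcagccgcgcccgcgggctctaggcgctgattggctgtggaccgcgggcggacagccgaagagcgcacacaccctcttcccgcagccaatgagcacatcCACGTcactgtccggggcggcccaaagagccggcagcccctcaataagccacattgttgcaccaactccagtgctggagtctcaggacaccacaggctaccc
Ldha promoter, chr7:46845554-46845853, plus strand: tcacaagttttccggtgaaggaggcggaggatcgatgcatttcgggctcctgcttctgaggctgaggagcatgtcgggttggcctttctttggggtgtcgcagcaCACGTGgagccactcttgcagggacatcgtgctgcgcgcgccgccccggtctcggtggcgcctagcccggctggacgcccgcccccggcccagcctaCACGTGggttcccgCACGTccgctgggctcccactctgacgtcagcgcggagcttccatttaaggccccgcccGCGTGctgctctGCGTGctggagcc

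The Pgk1 window holds ACGTG once on each strand, with first bases at -150 and -131 from the start, and 5 GC boxes (GGGCGG), 4 of them after the start. Slc2a1 holds 1 ACGTG and 1 GCGTG. Hk2 holds ACGTG at 2 places, both on the minus strand of the window. The Ldha window has the most capitals, with 5 matches of ACGTG and 2 of GCGTG. Of its ACGTG matches, 4 are the same 2 palindromes, CACGTG, read on both strands. All 4 windows lay wholly under a peak in all 3 lists.

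Over the 10 genes, 6 had ACGTG in at least 1 window (Slc2a1, Hk2, Aldoa, Pgk1, Pkm and Ldha), while 23.2% of the 17492 protein-coding genes with a window had it. Either core was found in 8 of 10, all but Gpi1 and Tpi1, beside 52.3% of coding genes. All 10 had a GC box, beside 49.2%. The CCAAT box was found in 7, beside 42.3%. Motifs of the SOX family were found at shares near those of all genes. ACAAAG was in 1 gene (Eno1), ACAATG in 2 (Hk2 and Tpi1), and the shorter ACAAT, which lies within ACAATG, in 3 (Hk2, Aldoa and Tpi1), beside 19.1%, 12.8% and 31.3% of coding genes. The octamer ATGCAAAT was in none of these windows and in 1.9% of coding genes. Both strands were searched, and a match describes letters only. Among single windows, 19.6% of all 32851 hold ACGTG and 32.4% hold GCGTG.

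The Pgk1 promoter peak chose this gene, so its values are a description. With Halo-Sox2 the peak scored 1710 (rank 56), with Halo-Sox2a 1916 (rank 19), and in the control 432 (rank 2266). The rank fractions were 0.063%, 0.0226% and 3.12%. Already in the control this was the highest-ranked of the 10 loci, and in both transgene lists it stood near the very top, 49.5-fold and 138-fold nearer than in the control. The peak was narrower in the transgene lists. It reached from 375 bp before the start to 120 bp after it with Halo-Sox2, from 398 bp before to 142 bp after with Halo-Sox2a, and from 518 bp before to 141 bp after in the control. The widths were 496, 541 and 660 bp. A start peak narrower than in the control was found at 43.6% of 11050 coding genes with Halo-Sox2 and at 36.7% of 11224 with Halo-Sox2a.

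**Figure D1:**
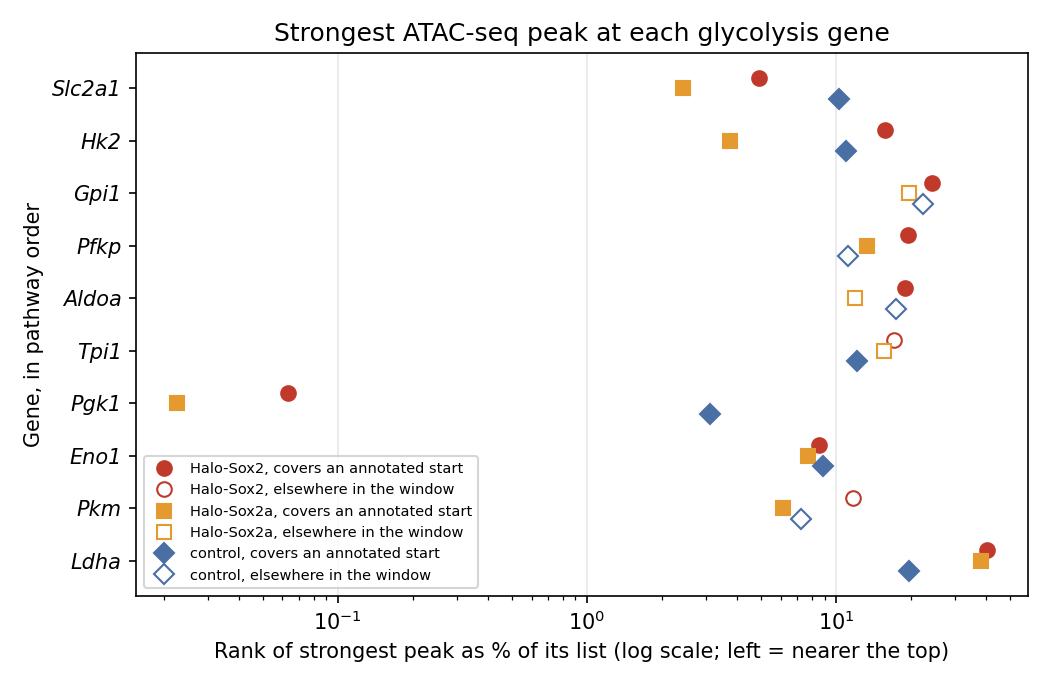
Rank of the strongest peak at each of the 10 genes as a percentage of its list (log axis, left is nearer the top), 1 point per list, filled where the peak covers an annotated start. Pgk1 lies at 0.063% and 0.0226% in the transgene lists, while every other gene lies between 2.44% and 40.4% in all 3 lists.

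Among the 9 other genes, only Slc2a1 moved towards the top in both transgene lists. Its folds were 2.10 and 4.24, beside 49.5 and 138 at Pgk1. With Halo-Sox2, 1 of the 9 others (Slc2a1) stood at least 2-fold nearer the top than in the control and 1 (Ldha) at least 2-fold farther. Over 16598 protein-coding genes with a peak in both lists, 13.2% moved towards the top and 21.3% away from it. With Halo-Sox2a, 2 of the 9 others (Slc2a1 and Hk2) moved towards the top and 0 away, beside 14.0% and 9.26% of 16851 genes. Each of these counts lies within 1 gene of what the shares give for 9 genes. The median fold of the 9 was 0.713 with Halo-Sox2, beside 0.829 for all genes, and 1.15 with Halo-Sox2a, beside 1.07. Both comparisons use the same control library, so their values are only set side by side. At a fold of at least 4, none of the 9 moved with Halo-Sox2 and only Slc2a1 did with Halo-Sox2a, beside 5.57% and 2.68% of all genes moved towards the top and 4.73% and 1.47% away.

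Slc2a1, the glucose transporter GLUT1, had its strongest peak over its start in all 3 lists (chromosome 4, from 119108479 to 119109291 with Halo-Sox2). Its score was 741 with Halo-Sox2, 641 with Halo-Sox2a and 274 in the control, and its rank fractions, in this order here and from now on, were 4.93%, 2.44% and 10.3%. The peak stood 2.10-fold nearer the top with Halo-Sox2 and 4.24-fold nearer with Halo-Sox2a. In lists cut to the same number of peaks the first of these was 0.78 on the log2 scale, under the 2-fold line. A second peak, upstream at -2.85 kb, went the other way, at 28.0%, 36.8% and 21.3%.

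Hk2, the hexokinase that starts glycolysis in growing cells, had its strongest peak over the start in every list. The rank fractions were 15.7% with Halo-Sox2, 3.77% with Halo-Sox2a and 11.0% in the control. The Halo-Sox2a peak was 2.90-fold nearer the top than the control, and the Halo-Sox2 peak 1.43-fold farther from it. In the Halo-Sox2a and control lists a single peak of 2009 and 1866 bp covered the first part of the gene. The Halo-Sox2 list had this stretch as 2 peaks, of 15.7% over the start and 25.1% behind it, so the score of that list rests on a shorter interval. Whether the split lowered its rank was not tested.

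Hk2 also had the most peaks of the 10 genes with either protein, 10 and 11, beside 5 in the control. Of 7 regions at the 10 genes found with both proteins and not in the control, 4 lay in Hk2, between 33.8 and 46.6 kb downstream of the start. They were weak, with rank fractions between 66.5% and 93.6% with Halo-Sox2 and between 36.5% and 84.6% with Halo-Sox2a. One of them began within a few bases of a site called in the control alone at 74.6%. A site at the far end of the gene, 51.1 kb from the start, was at 97.1%, 16.1% and 43.2%, and was again split into 2 peaks in the Halo-Sox2 list. In lists cut to equal size, regions found with both proteins and not in the control numbered 3 at the 10 genes. They made up 5.36% of the regions there, beside 7.48% at protein-coding genes.

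Gpi1 encodes glucose-6-phosphate isomerase. By the strongest peak within 1 kb of a start, it alone of the 10 was nearer the top with Halo-Sox2 than with Halo-Sox2a. The start peak was at 24.3% with Halo-Sox2, 47.9% with Halo-Sox2a and 45.6% in the control, a 1.88-fold difference from the control with Halo-Sox2. In the other lists the strongest peak of the locus was another one, upstream at -3.83 kb with Halo-Sox2a and at -3.9 kb in the control. It lies at the starts of the non-coding genes Gm12762 and Gm12758, with 32.1%, 19.7% and 22.3%. The start peak covered 266 of the 300 bases of the promoter window with Halo-Sox2, 204 with Halo-Sox2a and 79 in the control.

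Pfkp, the platelet-type phosphofructokinase, had 1 broad Halo-Sox2 peak of 2338 bp over its start at 19.4%. Halo-Sox2a had separate peaks there at 13.3% and 48.5%, and the control at 11.6% and 11.2%. The start itself was thus close in the last 2 lists, and the site behind it was 4.34-fold farther from the top with Halo-Sox2a than in the control. A site 6.01 kb into the gene was at 19.2% with Halo-Sox2a and at 93.9% in the control, with no Halo-Sox2 peak. A further site 19.7 kb into the gene was found with Halo-Sox2 alone, at 35.1%.

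Aldoa, fructose-bisphosphate aldolase, has 3 annotated starts, and the peak covered the later ones in all lists. The first window had 0 of 300 bases under a peak in every list. The peak over the later starts was at 19.0%, 14.9% and 22.7%. The strongest peak with Halo-Sox2a (11.9%) and in the control (17.4%) lay instead at the start of the neighbouring gene Ppp4c, which had 22.1% with Halo-Sox2. The shifts at Aldoa were thus all under 2-fold.

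Tpi1, triosephosphate isomerase, had its strongest control peak over its start, at 12.2%. The start peak was at 18.8% with Halo-Sox2a and at 46.2% with Halo-Sox2, where the interval was split into 2 peaks, the other at 90.8%. Taken at the start alone, Tpi1 was 3.79-fold farther from the top with Halo-Sox2 than in the control. By the strongest peak of the locus it was 1.40-fold farther, because a peak 8.37 kb downstream of the start, beyond the gene's end, stood at 17.1%. That site was at 15.6% with Halo-Sox2a and 14.2% in the control.

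Eno1, enolase, lay close to the control with both proteins. Its peak over the start was at 8.54%, 7.72% and 8.88%, folds of 1.04 and 1.15 against the control. A peak 2.92 kb downstream was at 36.2%, 32.6% and 19.3%. Halo-Sox2 alone had a site 1.21 kb behind the start, at 40.1%.

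Pkm, the pyruvate kinase of proliferating cells and muscle, had a start peak at 17.4% with Halo-Sox2, 6.11% with Halo-Sox2a and 7.37% in the control. At the start, Halo-Sox2 was thus 2.35-fold farther from the top than the control, and Halo-Sox2a 1.21-fold nearer. The second annotated start was covered whole in both transgene lists and by 19 of 300 bases in the control. The other strong peak of the locus, 22.9 kb downstream at the start of the neighbouring gene Gramd2, was at 11.7%, 8.27% and 7.21%. It was the strongest of the locus with Halo-Sox2 and in the control.

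Ldha, lactate dehydrogenase A, stood farther from the top in both transgene lists than in the control. Its strongest peak, over the first start, was at 40.4% with Halo-Sox2, 38.1% with Halo-Sox2a and 19.6% in the control, 2.05-fold and 1.94-fold farther from the top, the latter short of the 2-fold line. The peak at the second start went the other way, at 41.5%, 55.0% and 61.9%. Ranked among genes rather than peaks, the shifts of the strongest peak were 1.39-fold and 1.45-fold, under the 2-fold line.

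**Figure D2:**
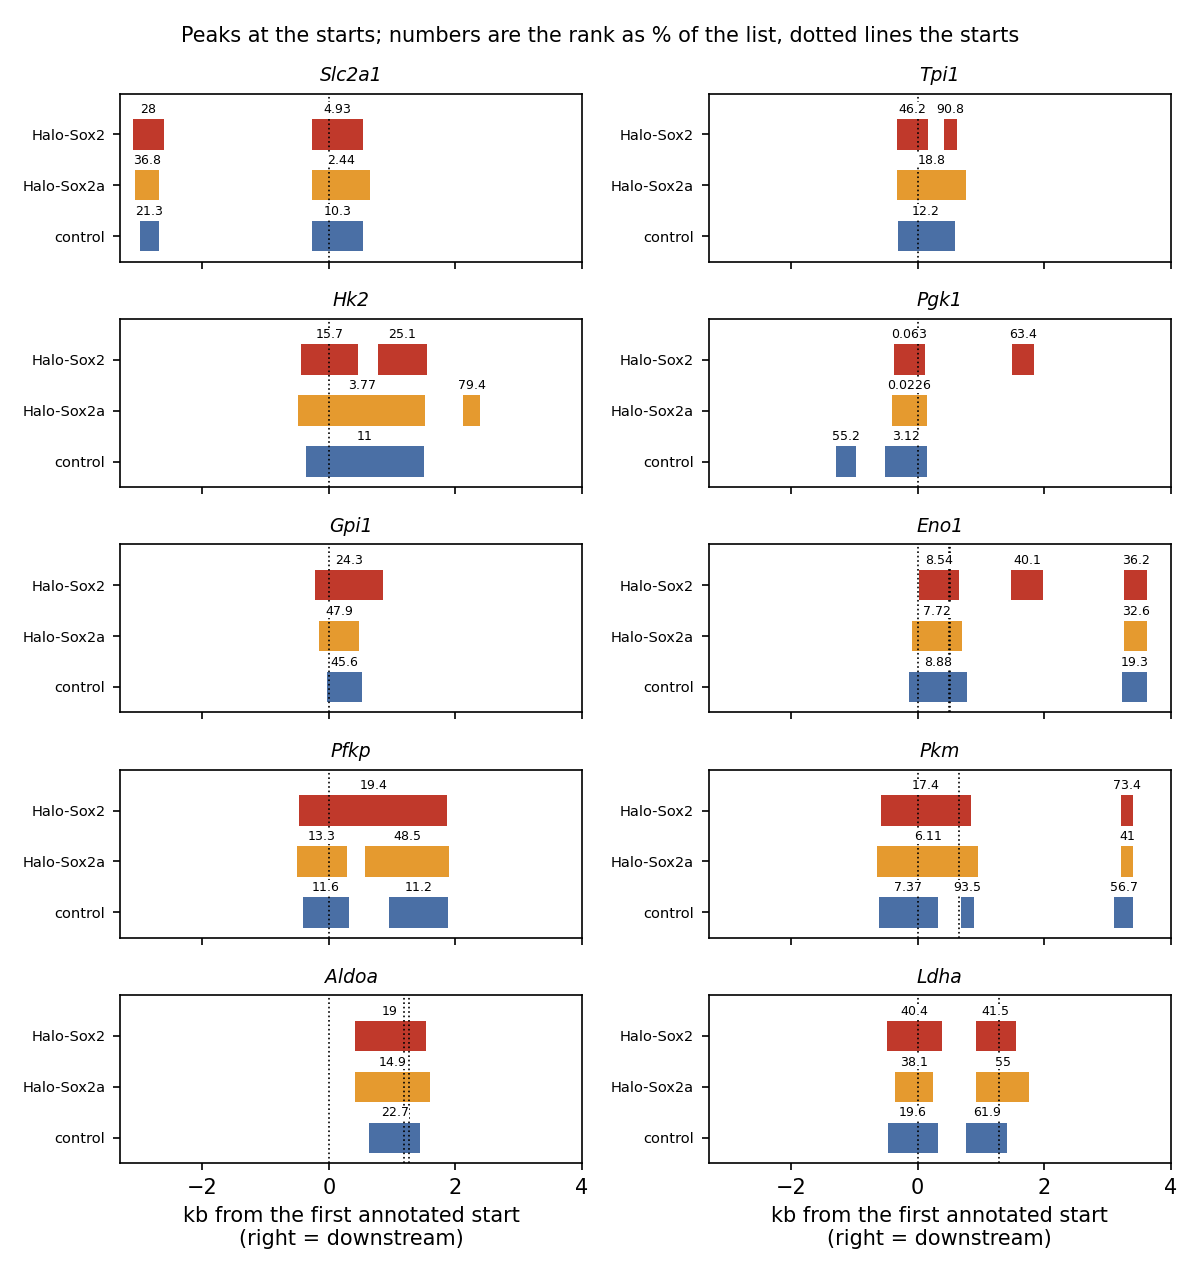
Peaks of the 3 lists around the starts of the 10 genes, as bars over distance in kb from the first annotated start, with dotted lines at every annotated start. Numbers above the bars are rank fractions in percent. The Halo-Sox2 list has 2 peaks where the others have 1 at Hk2 and Tpi1, and 1 where the others have 2 at Pfkp, while the control has 2 at Pkm.

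Ranking genes by their strongest peak removes the difference in list size. Among 16472 protein-coding genes with a peak in all 3 lists, Pgk1 was at place 31 with Halo-Sox2, 6 with Halo-Sox2a and 2022 in the control. Slc2a1 was at 2796, 1745 and 6067, and Hk2 at 7658, 2666 and 6359. Eno1 was at 4594, 5129 and 5333. On this measure 11.2% of genes moved at least 2-fold towards the top with Halo-Sox2 and 11.4% away, and 7.51% and 7.58% with Halo-Sox2a. With lists cut to equal size the shares were 10.1% and 31.3% with Halo-Sox2, and 10.0% and 13.4% with Halo-Sox2a. In the full lists they were 13.2% and 21.3% with Halo-Sox2, and 14.0% and 9.26% with Halo-Sox2a. Among peaks, the balance between directions therefore changed with the cut to equal size. Ranks among the same genes are the same set of places in every list, so their near-equal shares follow from the measure. Pgk1 with both proteins, and Hk2 and Slc2a1 with Halo-Sox2a, were past the 2-fold line in ranks among genes and in lists of equal size.

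Other readings gave these counts for the 9 genes. At the starts, 1 was nearer the top with Halo-Sox2 and 3 farther (Tpi1, Pkm and Ldha), beside 4.26% and 24.2% of 11050 genes. With Halo-Sox2a, 2 were nearer and 0 farther, beside 10.5% and 9.27% of 11224. At the position of the control's strongest peak, 1 was nearer and 2 farther with Halo-Sox2 (beside 4.86% and 30.7%), and 2 nearer and 1 farther with Halo-Sox2a (beside 10.8% and 12.4%). With Halo-Sox2 inside gene bodies alone, 2 were nearer and 2 farther, beside 15.9% and 20.0%. With Halo-Sox2a inside gene bodies, 3 were nearer (Slc2a1, Hk2 and Pkm) and 0 farther, beside 14.9% and 10.2%. The midpoint of the control's Pkm start peak lies outside the gene, so gene bodies alone leave that peak out. With Halo-Sox2 and a window of 10 kb, 2 were nearer (Slc2a1 and Hk2) and 1 farther, beside 13.9% and 21.8%. With Halo-Sox2 and scores of at least 2 times the lowest, 1 was nearer and 0 farther, beside 13.8% and 19.8%. With Halo-Sox2a, 2 were nearer and 0 farther in the 10 kb window, beside 14.2% and 9.55%. The stricter scores also gave 2 and 0 with Halo-Sox2a, beside 13.3% and 9.87%. Of the 5895 genes with a control peak in the top 10%, where Pgk1, Eno1 and Pkm lie, 8.99% were nearer and 41.5% farther with Halo-Sox2, and 13.7% and 20.0% with Halo-Sox2a. Of these 3 genes, only Pgk1 was past the line.

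Pgk1 had been chosen for its shift in both transgene lists, so a high place follows from that choice and is a description only. By the smaller of its folds in the transgene lists, Pgk1 was at place 2 of the 16472 genes. Gpa33 was first, with folds of 299 and 51.6, then came Pgk1, Tnni3k (36.7 and 38.7), Emc8 (172 and 31.3) and Spred1 (30.8 and 35.2). Both folds share the control. By the Halo-Sox2 fold alone Pgk1 was at place 42, and by the Halo-Sox2a fold alone at place 3. At Gpa33 and Tnni3k the control's strongest peak was at another position than that of the transgene lists, so their folds compare different sites. When the transgene peaks were required to overlap the control's strongest peak, Pgk1 was at place 1 of 15617 by the smaller fold, and at place 9 with Halo-Sox2 alone. Among peaks within 1 kb of an annotated start it was at place 2 of 10960, behind Fgfbp1 (104 and 91.0). The Fgfbp1 peaks lay 0.963 and 0.889 kb from its start in the transgene lists and 0.256 kb in the control. Its folds may thus compare different sites too. At the starts of all coding genes, the middle 90% of folds ran from 0.254 to 1.89 with Halo-Sox2 and from 0.402 to 2.58 with Halo-Sox2a.

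**Figure D3:**
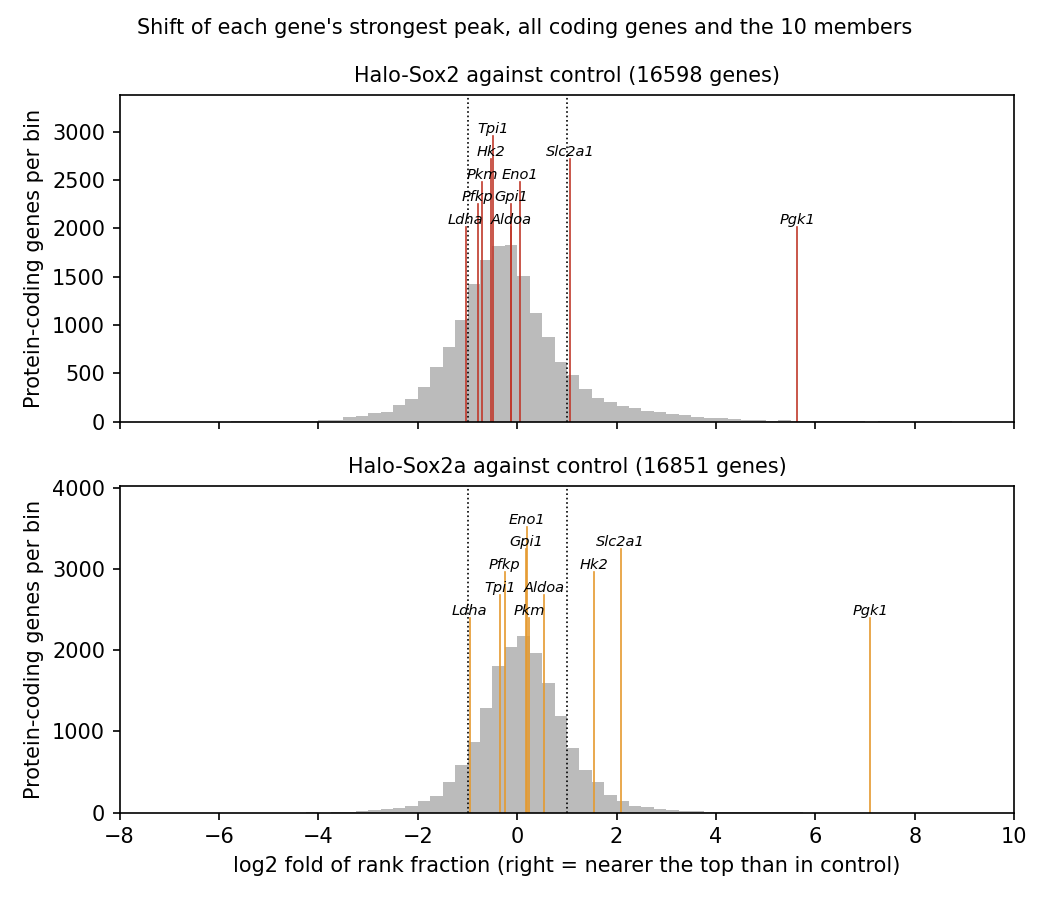
Number of protein-coding genes by log2 fold of the rank fraction of their strongest peak against the control (bins of the grey bars), for Halo-Sox2 above and Halo-Sox2a below, with lines at the 10 glycolysis genes and dotted lines at 2-fold. Pgk1 lies at 5.63 and 7.11, and the other 9 genes between -1.04 and 2.08.

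The other peaks around Pgk1 did not stand where its promoter peak stood. Within 100 kb of the gene, the Halo-Sox2 list had 9 other peaks, the Halo-Sox2a list 5 and the control 5. The highest of these lay within 1 kb of the Taf9b start, about 32.6 kb downstream, at 20.0% with Halo-Sox2, 14.5% with Halo-Sox2a and 9.57% in the control. A peak 10.6 kb upstream was at 46.7%, 22.4% and 18.6%. At both sites the transgene lists stood below the control, opposite to the promoter. Taf9b had folds of 0.477 and 0.661. Of genes with a control peak in the top 10%, as at Taf9b, 41.5% moved at least 2-fold farther with Halo-Sox2 and 20.0% with Halo-Sox2a. Inside Pgk1, a site 11.5 kb from the start was found with both proteins and not in the control, at 94.1% and 74.3%, and 2 further sites were of Halo-Sox2 alone, at 63.4% and 77.4%. A site 1.13 kb upstream was of the control alone, at 55.2%. At the start of Atp7a, the neighbour upstream, the lists had 17.4%, 12.9% and 10.8%.

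Pgk1 is the only one of the 10 genes on chromosome X. Of X-linked genes, 13.2% (of 539) moved towards the top with Halo-Sox2 and 11.7% (of 545) with Halo-Sox2a, beside 13.2% and 14.0% of autosomal genes. Away from the top moved 15.4% and 6.79% of X-linked genes, beside 21.5% and 9.34% of autosomal ones. With Halo-Sox2 the median fold was 0.927 for X-linked and 0.826 for autosomal genes. Expression vectors often carry a Pgk1 promoter, and the labels do not describe the vectors of these lines. A contribution of vector copies to the peak was not tested.

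**Figure D4:**
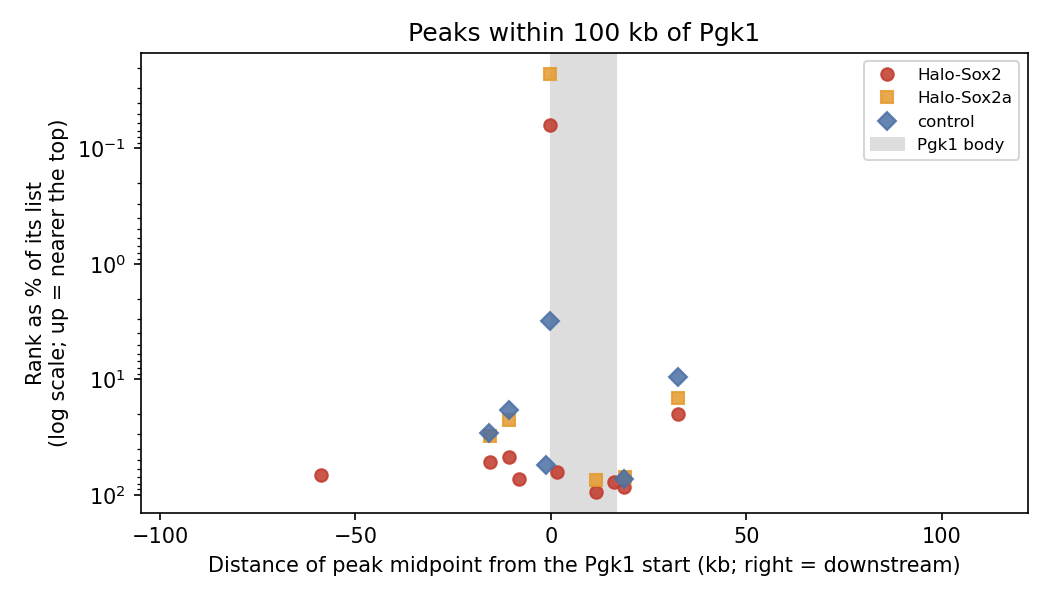
Rank fraction (log axis, up is nearer the top) of every peak within 100 kb of the Pgk1 body against the distance of its midpoint from the Pgk1 start in kb, with the gene body shaded. The promoter points of the transgene lists lie at 0.063% and 0.0226%, and all their other peaks at 14.5% or farther from the top.

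Set directly against each other without the control, the transgene lists differed at least 2-fold at 3 of the 10 genes, all nearer the top with Halo-Sox2a. These were Hk2 (4.16-fold), Pgk1 (2.78-fold) and Slc2a1 (2.02-fold). Over 16785 genes, 22.5% were at least 2-fold nearer the top with Halo-Sox2a and 10.0% with Halo-Sox2. The rank fraction among peaks was smaller with Halo-Sox2a, by any amount, at 10 of the 10 genes and at 66.8% of all genes. Ranked among genes this held for 7 of 10 (not Tpi1, Eno1 and Ldha), beside 53.9% of genes. The median ratio was 0.657 for the 10, beside 0.784 for all genes. At the starts, 5 of the 10 were at least 2-fold nearer the top with Halo-Sox2a (Slc2a1, Hk2, Tpi1, Pgk1 and Pkm) and 0 with Halo-Sox2, beside 23.5% and 2.67% of 11146 genes. At 4-fold only Hk2 was past the line, beside 4.34% of all genes, with 4.06% the other way. At the control's strongest peak, 4 were at least 2-fold nearer with Halo-Sox2a and 1 (Pfkp) with Halo-Sox2, beside 28.1% and 3.41%. Ranked among genes, only Hk2 and Pgk1 were past the 2-fold line, both nearer with Halo-Sox2a, beside 9.82% of genes, with 9.73% the other way.

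Merging overlapping peaks gave 63 regions at the 10 genes. Of these, 34 were in all 3 lists (54.0%, 95% Wilson interval 41.8 to 65.7%, counting error only), beside 36.6% of 79629 regions at protein-coding genes. Regions of Halo-Sox2 alone made up 14.3% (7.70 to 25.0%), beside 23.0%. Regions of Halo-Sox2a alone made up 12.7%, beside 12.2%, and those of both proteins without the control 11.1%, beside 9.40%. The control alone held 2 regions, or 3.17%, beside 8.22%. Aldoa and Pkm had regions of all 3 lists only, 2 and 5 in number. Requiring 50% of both peaks to overlap lowered the share in all 3 lists to 38.2%, beside 27.3% at all coding genes. In each list 11 peaks covered an annotated start, over all 10 genes, with median rank fractions of 19.0%, 13.3% and 11.6%. The remaining peaks had medians of 73.4%, 52.4% and 55.2%.

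A further list of 51 genes of glucose metabolism and its control, chosen by function, was read the same way. With Halo-Sox2, 5 of 45 with a peak in both lists moved towards the top (11.1%) and 5 away (11.1%). Over all genes these shares were 13.2% and 21.3%. With Halo-Sox2a, 4 of 46 moved towards the top (8.70%) and 5 away (10.9%), beside 14.0% and 9.26% of all genes. The median folds were 0.912 and 1.11, beside 0.829 and 1.07 for all genes. Of the other glucose transporters, Slc2a3 (GLUT3) was at 8.06%, 4.36% and 17.7%, 2.20-fold and 4.06-fold nearer the top. Its strongest peak in the transgene lists was another one than in the control. Slc2a4 (GLUT4), with folds of 1.24 and 1.74, did not pass the 2-fold line, and its Halo-Sox2 peak did not overlap its control peak. Slc2a2 (GLUT2) had no Halo-Sox2 peak and a fold of 0.98 with Halo-Sox2a. These transporters are named after their values were seen. Hk3, a hexokinase of blood cells, was 3.17-fold and 2.72-fold nearer the top, again from a peak at another position than in the control. Hk1, the widely expressed hexokinase, was near the control, at 5.67%, 6.37% and 5.35%.

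Ldhb, the partner subunit of Ldha, had its start peak at 6.61%, 4.01% and 1.17%, folds of 0.177 and 0.293. It was thus past the 2-fold line with both proteins, in a range of the control list where 41.5% and 20.0% of genes moved away from the top. Gapdh, which works just before Pgk1, had its strongest peak at 30.7%, 8.22% and 15.4%, beside the end of Iffo1. Pgam1, which works just after Pgk1, was at 36.4%, 22.7% and 21.5%.

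Among the genes that set the fate of glucose, Pfkl was at 14.1%, 10.9% and 7.26% and Pfkm at 24.8%, 23.5% and 12.8%. The Pfkm value with Halo-Sox2a is of another site than in the other lists, at the start of Senp1. The regulators Pfkfb3 (11.3%, 11.7% and 13.4%) and Pdk1 (17.0%, 17.5% and 15.0%) were past the 2-fold line with neither protein. Tigar, a phosphatase that slows glycolysis, was at 3.47%, 7.49% and 3.33%, and Fbp1, of gluconeogenesis, at 32.5%, 60.4% and 28.7%. The Tigar peak with Halo-Sox2 lay 27.8 kb from its start, at the end of Fgf23, and in the other lists at the Tigar start. The Fbp1 values are of a different site in each list, 15.9, 8.1 and 0.308 kb from the start. Of the lactate carriers, Slc16a1 was at 15.0%, 13.5% and 8.88% and Slc16a3 at 23.8%, 26.4% and 37.8%. The Slc16a1 control peak lay 5.39 kb from the start, and the peaks of the transgene lists at the start. Other shifts among the 3 largest in each direction were Eno4 (2.24-fold towards the top with Halo-Sox2) and Ldhd (3.09-fold with Halo-Sox2a). The Ldhd peak lay at the end of the neighbouring gene Znrf1. Pdk4 and Hif1a had folds of 0.122 and 0.447 with Halo-Sox2. Further genes past the 2-fold line are in the counts only. The Eno4 shift compares a Halo-Sox2 peak 25.8 kb from its start with a control peak at the starts of Eno4 and Hspa12a. Bnip3, a hypoxia-response gene, had a fold of 0.422 with Halo-Sox2a. Pdk4, Hif1a and Bnip3 were at 0.761%, 4.69% and 2.53% in the control. Of genes in the control's top 10%, 41.5% moved away with Halo-Sox2 and 20.0% with Halo-Sox2a. In the direct comparison, Pdha1 was 4.19-fold nearer the top with Halo-Sox2, while Pdk4, Gapdh and Ldhd had ratios of 0.0904, 0.268 and 0.414. The Ldhd ratio compares different sites, 7.93 kb from the start with Halo-Sox2 and 3.88 kb with Halo-Sox2a.

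As a check of the cells, 6 of 8 pluripotency genes had a peak within 1 kb of a gene end with Halo-Sox2, 7 with Halo-Sox2a and 7 in the control. Zfp42 led in all lists, at 2.43%, 0.926% and 0.215%, while the medians of the pluripotency genes with a peak were 21.0%, 13.2% and 24.9%. Peaks were also found at 2 of 4 primitive endoderm, 3 of 3 neural and 4 of 4 fibroblast genes in every list. Their medians were 37.0%, 24.9% and 50.2% (primitive endoderm), 56.8%, 54.5% and 68.3% (neural), and 64.7%, 38.6% and 45.0% (fibroblast). The primitive endoderm gene Sox17 was at 30.1%, 4.57% and 27.4%. The share of all genes with such a peak is not given here. An open promoter need not be an expressed one, and the part of other cells in the results was not tested. Nanog had no such peak with Halo-Sox2, and Esrrb in no list. The depth of the libraries is unknown, and the lowest score was 13 in each list.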

How the data were processed

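ATAC-seq peak lists of 3 libraries were used, 1 per group, grouped by the labelled cell line. Per the submitters' processing notes, STAR, SAMtools, MACS2 3.0.0a7, MACS3, deepTools 3.3.0 and the build mm10 were involved, in roles not stated there. The deposited score is the authors' whole number per peak, without a stated scale. It was used only to rank peaks within a list, ties taking the smallest rank. Peak names carry 1 library each, so the authors called peaks per library. The peak threshold and any Tn5 shift are not given in the sources used here. Depth is unknown. Genes and promoter windows came from RefSeq tables of GRCm38.p6, the same build as mm10. Starts were converted to 1-based positions. Computations used Python 3.11.15 with pandas 2.3.3 and numpy 2.4.6, and the ranking step was tested on simulated data. Named were all 10 genes, 13 of 51 related genes, and the 3 of those 51 with the largest fold in each direction and comparison, except 1 gene that is not reported here. The genes and lists were chosen with earlier results of these data known. The alternatives were other windows, stricter or equal-sized lists, start peaks, matched peaks, ranks among genes and other overlaps. Strand and starts came from the promoter table, and starts were used for distances and for the start peaks. Wilson intervals cover counting error only. No test was made.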

Additional observations from a re-analysis of the deposited data

Results flagged for a closer look

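At 4 of the 10 genes the strongest peak shifted in opposite directions against the control in the 2 transgene libraries, beside 35.2% of 16472 protein-coding genes. With 1 library each, the difference was not tested. On the log2 scale of the rank fraction (positive is nearer the top), Hk2 was at -0.52 with Halo-Sox2 and 1.54 with Halo-Sox2a. Pkm was at -0.70 and 0.24, Aldoa at -0.12 and 0.55, and Gpi1 at -0.12 and 0.18, all under the 2-fold line. At Gpi1, Aldoa and Pkm the strongest peak was not the same site in every list, and at Hk2 the Halo-Sox2 list had 2 peaks where the others had 1. Ranked among genes, opposite directions were left at Hk2 and Pkm, 2 of the 10, beside 32.2% of genes, while Gpi1 (0.03 and 0.04) and Aldoa (0.04 and 0.31) had the same sign. With a window of 10 kb, Hk2 with Halo-Sox2 was at 2.07.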

How the results depend on the processing

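Of 208 recomputed shifts of single genes, 184 kept their side of the 2-fold line, 14 passed it in the same direction, 5 fell short of it and 5 reversed. The reversals on the log2 scale came from another peak being read. With a window of 10 kb, Hk2 went to 2.07 with Halo-Sox2 against the control and to 0.53 against Halo-Sox2a. Inside the gene body alone, Pkm went to 1.71 with Halo-Sox2 against the control, and Pgk1 to 0.23 between the transgene lists. At the strongest control peak, Pfkp went to 1.32 between the transgene lists.

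With lists of equal size, the 10 genes held 40 peaks with Halo-Sox2, 47 with Halo-Sox2a and 42 in the control. In the full lists these counts were 56, 52 and 42, so the excess with Halo-Sox2 over the control was not kept. With gene bodies alone, Halo-Sox2 and Halo-Sox2a each had 36 peaks and the control 23. The Pgk1 promoter midpoint then lies outside the gene, and the strongest peak left was at 63.4% with Halo-Sox2 and 74.3% with Halo-Sox2a, with none in the control. Ranked among genes, Pgk1 was at 0.188% with Halo-Sox2, 0.0364% with Halo-Sox2a and 12.3% in the control. With scores at least 2 times the lowest, its control value was 3.32%.

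The counts here are of all 10 genes, including Pgk1, which had been chosen for its shift. Within gene bodies alone Pgk1 had no control peak and was left out. Genes moved towards the top with Halo-Sox2 numbered 2 (beside 13.2% of all genes), and 3 with a window of 10 kb (Hk2 added, beside 13.9%). They numbered 1 with lists of equal size (beside 10.1%) and with a fold of 4 (beside 5.57%). Those moved away numbered 1 (beside 21.3%). They became 2 for gene bodies alone (beside 20.0%), lists of equal size (31.3%) and the strongest control peak (30.7%), and 3 at the starts (24.2%). They became 0 with stricter scores (beside 19.8%), ranks among genes (11.4%) and a fold of 4 (4.73%). With Halo-Sox2a, genes moved away numbered 0 (beside 9.26%), and 1 with lists of equal size (beside 13.4%) and at the strongest control peak (beside 12.4%). Between the transgene lists, genes nearer the top with Halo-Sox2a numbered 3 (beside 22.5%), but 5 at the starts (beside 23.5%) and 1 with a fold of 4 (beside 4.34%). At the strongest control peak 1 was nearer with Halo-Sox2 (beside 3.41%). The share of regions in all 3 lists was 38.2% with 50% of both peaks overlapping (beside 27.3%) and 43.2% within gene bodies alone (beside 35.3%). No paired analysis was possible because each group has 1 library, and no library could be left out for the same reason.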

Other observations

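Just outside the 5 kb limit, 6.44 kb upstream of the Hk2 start, the Halo-Sox2 list had a peak of 763 bp (chromosome 6, 82780515 to 82781277) with a score of 886 and rank 2316, at 2.61%. It was stronger in that list than the peak over the Hk2 start, at 15.7%. The Halo-Sox2a list had a peak of 416 bp there at 52.4%, and the control had none overlapping it. The site was chosen after its values were seen, and no other gene ends within 1 kb of it.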
